A study of Rattus norvegicus with 24 samples.

Results

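The growth hormone receptor and the insulin-like growth factor (IGF) axis were followed through 10 genes in the rat mammary gland: Ghr, Igf1, Igf2, Igf1r, Insr, Igfbp2, Igfbp3, Igfbp4, Igfbp5 and Igfbp6. All probe sets annotated to 1 of these genes were taken, with no choice among the probe sets of a gene, which gave 24 probe sets of the 31042 tested and 10 of 14217 genes. The study measured gene expression on 24 Affymetrix arrays in the abdominal mammary glands of prepubertal Sprague-Dawley rats and asked how each sex responds to exogenous estradiol. Males and females carried mini-osmotic pumps under the skin that released 17β-estradiol, the main ovarian estrogen, between weaning at postnatal day 21 and collection at postnatal day 33. Each sex had 4 groups of 3 arrays, at 0, 0.1, 1 and 10 µg/kg/day, and the animals at 0 are the controls of their sex. Nothing in the labels ties an array to 1 animal. The p-values therefore reflect array-to-array spread, some of it possibly technical.

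Growth hormone from the pituitary acts on cells that carry Ghr, its receptor, which signals through the kinase Jak2 and the transcription factors Stat5a and Stat5b and raises Igf1 in many tissues. Igf1 and Igf2 are secreted ligands that activate the receptor Igf1r, and Insr is the closely related insulin receptor. The Igfbp proteins bind the ligands in blood and tissue fluid and limit or prolong their action. In rodents, growth hormone and locally made Igf1 are known to act together with estradiol in the growth of mammary ducts into the surrounding fat pad.

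Every value below is a deposited log value, taken as log2, that appeared to be centred per probe set within each sex, on an unknown reference. The 0 point need not be the middle of the arrays of a sex. For Igfbp4, all female arrays at 0, 0.1 and 1 lay below 0. Values tell how arrays of the same sex differ, and they hold no level that can be set against another gene or the other sex. The labelled tissue could not be checked against its markers for the same reason. Markers of other cell types did vary between arrays. The mean of 20 hepatocyte marker genes was above 1 on 4 arrays, namely control replicate 1 of the females (2.26), control replicates 2 (1.34) and 3 (2.39) of the males, and replicate 7 of the males at 1 (1.05). The other 20 arrays lay between -0.62 and 0.78. In bulk tissue, fewer cells of a type and less RNA per cell cannot be told apart.

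At 10 µg/kg/day the male gland had lower Ghr, Igf1, Igfbp3 and, on 3 of 5 probe sets, Igfbp5. Igfbp2, Igfbp4 and 1 probe set of Igf1r were higher than in males at 0, and 1 probe set of Insr was lower. Of the 24 probe sets, 11 passed the threshold as lower and 3 as higher (adjusted p under 0.05 in limma, Benjamini-Hochberg over all 31042 probe sets), which is 58.3%. The same threshold was passed by 17.5% of all probe sets in this comparison, 9.64% lower and 7.81% higher. The median difference was -0.22 over the 24 probe sets and -0.01 over all. The forest plot of differences shows all 24 for both sexes.

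**Figure D1:**
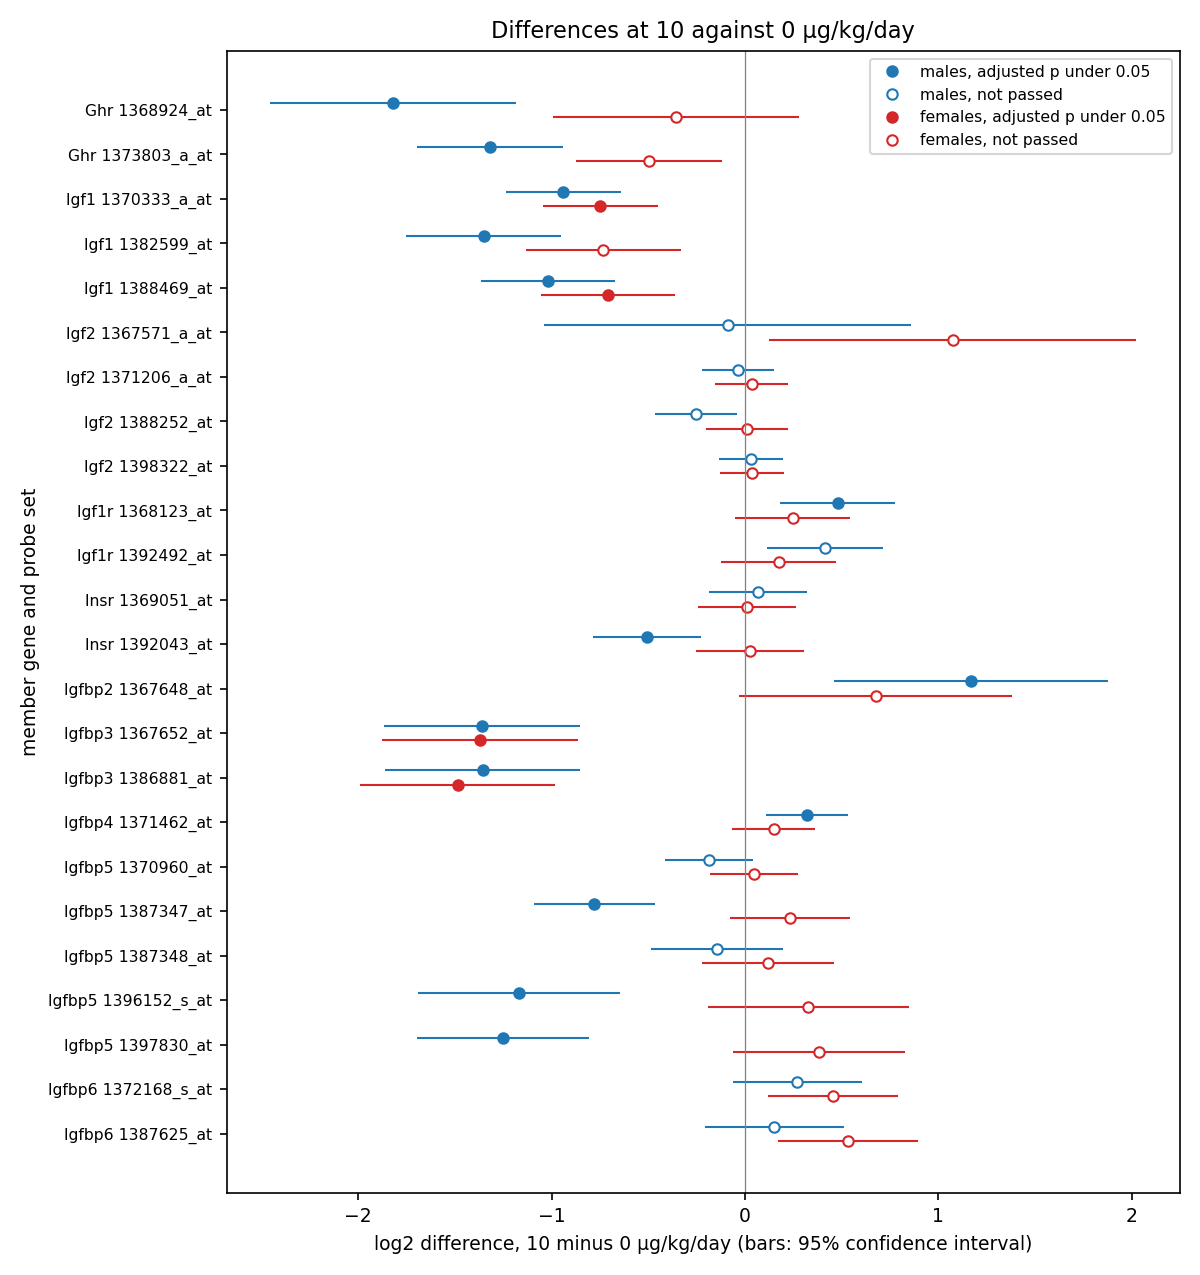
Log2 difference between 10 and 0 µg/kg/day for each of the 24 probe sets (rows), males in blue above females in red, with 95% confidence intervals from limma (n = 3 arrays per group). Filled points passed an adjusted p of 0.05. Both Igfbp3 probe sets sit between -1.36 and -1.49 in both sexes, whereas all 5 Igfbp5 probe sets lie left of 0 in males, 3 of them filled, and right of 0 in females, none filled.

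Ghr fell with estradiol in males on both of its probe sets. Probe set 1373803_a_at read 0.65, 0.54 and 0.38 in males at 0, then -0.03, 0.19 and -0.18 at 0.1, -0.23, -0.24 and -0.34 at 1, and -0.53, -0.96 and -0.90 at 10. The 3 arrays at 10 lay below all 9 other male arrays, and the 3 at 0 lay above all 9 others. Probe set 1368924_at read 1.19, 0.26 and 0.64 in males at 0, -0.18, 0.32 and 0.41 at 0.1, -0.29, 0.05 and -0.41 at 1, and -0.84, -1.28 and -1.25 at 10, again with the arrays at 10 lowest. The difference between 10 and 0 was -1.32 ± 0.18 (SE, n = 3 arrays each, adjusted p = 8.68e-05), a 2.49-fold reduction, for 1373803_a_at. It was -1.82 ± 0.30 (adjusted p = 0.000508), a 3.53-fold reduction, for 1368924_at. The 2 probe sets correlated at 0.88 over the 24 arrays.

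White adipocyte markers moved with Ghr. The mean of 20 adipocyte genes lay between -0.85 and -0.61 in males at 10, against 0.41 to 0.51 in males at 0. Of the 31 probe sets of that list, 26 were lower (median difference -1.16), against 9.64% of all probe sets. Across the 24 arrays, with the mean of each sex taken off, Ghr 1373803_a_at correlated with the adipocyte mean at 0.96 and 1368924_at at 0.88. These arrays share their dose groups, so the values are descriptions. With the adipocyte mean as a covariate, the male difference at 10 was -0.09 ± 0.20 for 1373803_a_at and -0.04 ± 0.44 for 1368924_at (adjusted p = 0.997 and 0.998). The covariate itself did not overlap between the male groups at 10 and 0, so its part and that of dose cannot be told apart.

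**Figure D2:**
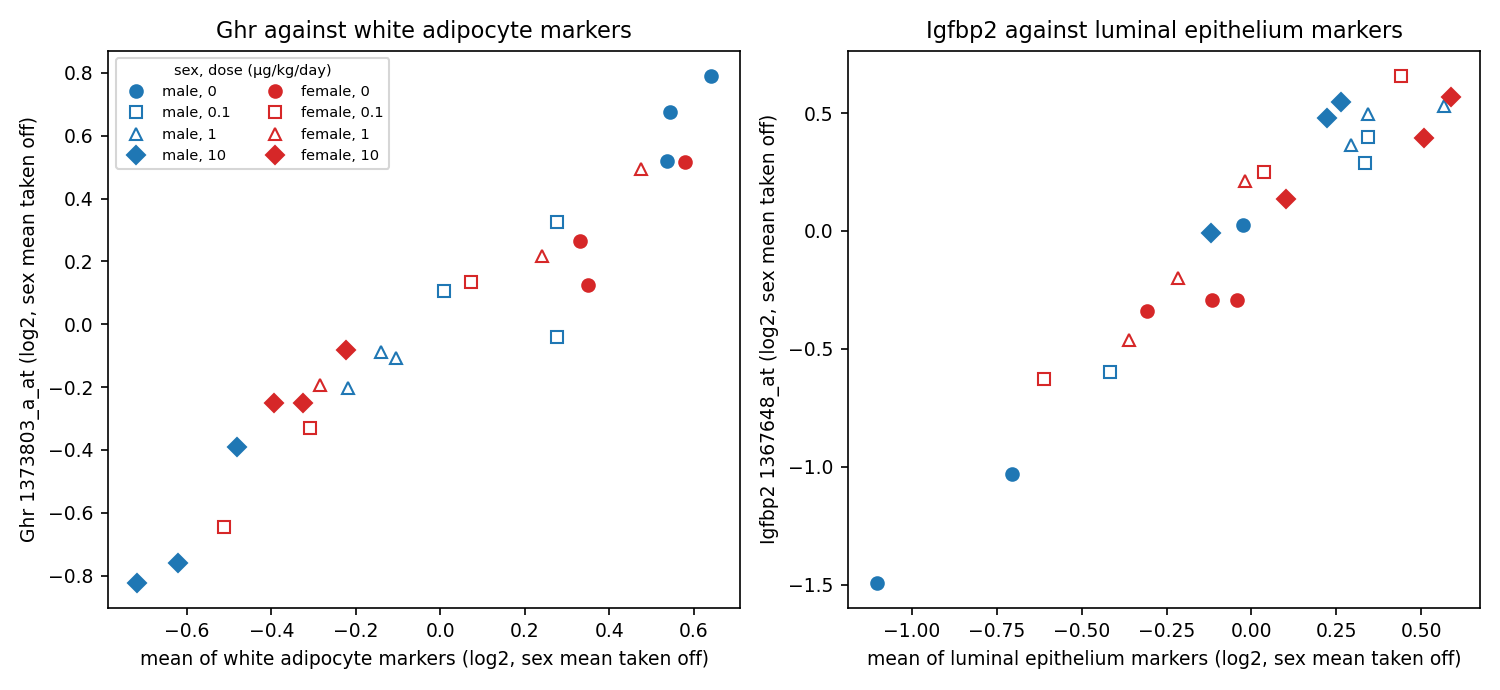
Left, Ghr probe set 1373803_a_at against the mean of white adipocyte marker genes; right, Igfbp2 against the mean of luminal epithelial marker genes. Each point is 1 of 24 arrays, in log2 units with the mean of its sex taken off; the correlations are 0.96 in both panels, and 2 of the 3 males at 10 hold the lowest Ghr and adipocyte values.

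Igf1, the ligand that growth hormone raises, fell in males at 10 on all 3 of its probe sets. Probe set 1382599_at read 1.09, 0.33 and 0.49 in males at 0, 0.44, 0.26 and -0.04 at 0.1, 0.14, 0.03 and 0.04 at 1, and -0.56, -0.75 and -0.83 at 10. Probe set 1370333_a_at read 0.66, 0.36 and 0.39 at 0, 0.34, 0.05 and -0.04 at 0.1, 0.09, -0.10 and -0.04 at 1, and -0.42, -0.51 and -0.47 at 10. Probe set 1388469_at followed the same order of group means. In all 3 the arrays at 10 were below every other male array. The differences between 10 and 0 were -1.35 ± 0.19 for 1382599_at (adjusted p = 0.000119), -0.94 ± 0.14 for 1370333_a_at (adjusted p = 0.000223) and -1.02 ± 0.17 for 1388469_at (adjusted p = 0.000414). The probe sets correlated with one another at 0.95 to 0.99 and with the adipocyte mean at 0.84 to 0.85. With that mean as covariate the differences were -0.75 to -0.99, and adjusted p was at least 0.751.

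Liver makes much Igf1, so the male controls with hepatocyte markers were set apart. Without them replicate 1 was the only male control left, and its spread was assumed to be that of the other groups. That array had the lowest beta-actin 3′ minus 5′ difference (-0.56) and the lowest luminal epithelial mean (-1.08) of all 24, was 1 of the 2 with the widest values over all probe sets, and held the highest male Ghr and Igf1 values. Igf1 1382599_at then differed by -1.81 and Ghr 1373803_a_at by -1.45, sizes that rest on this 1 control array. The part of liver RNA in the Igf1 difference was not tested. The comparison of males at 10 with males at 0.1 holds no hepatocyte-high array, with means of -0.25 to -0.17 at 10, against -0.19 to -0.05 at 0.1. There Igf1 1382599_at differed by -0.94 ± 0.19 (adjusted p = 0.00736). The beta-actin difference, which compares the 2 ends of a control transcript, was apart between these groups, at -0.02 to 0.16 in males at 10, against -0.50 to -0.36 in males at 0.1. With it as covariate this Igf1 difference was -0.60 ± 0.31 (adjusted p = 0.279), and with the adipocyte mean it was -0.69 ± 0.30 (adjusted p = 0.515).

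Igfbp3, which carries most circulating IGF, fell in both sexes at 10. Probe set 1386881_at read -1.06, -0.83 and -0.89 in males at 10, against 0.69, 0.41 and 0.19 in males at 0. In females it read -1.54, -0.45 and -0.64 at 10, against 0.50, 0.28 and 1.04 at 0. The groups were apart in each sex, and replicate 10 was the lowest female array. The difference was -1.36 ± 0.24 in males (adjusted p = 0.000857) and -1.49 ± 0.24 in females (adjusted p = 0.00375), a 2.80-fold reduction in females. Probe set 1367652_at gave -1.36 ± 0.24 (adjusted p = 0.000849) and -1.37 ± 0.24 (adjusted p = 0.00649) and correlated with the first at 0.99. The male difference minus the female difference was 0.13 for 1386881_at, with a 95% confidence interval of -0.59 to 0.84, and 0.01 (-0.70 to 0.72) for 1367652_at.

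The group means of Igfbp3 did not follow dose in the same order in the sexes. The male minus the female difference did not pass in limma at 0.1 (adjusted p = 0.621 to 0.624) or at 1 (adjusted p = 0.542 to 0.586). No Igfbp3 difference from 0 at these doses passed in either sex. In males 1386881_at read 0.35, 0.10 and 0.25 at 0.1 and -0.10, -0.50 and -0.27 at 1. The arrays at 0.1 overlapped the controls, and those at 1 lay below both and above those at 10. In females it read -0.43, -0.26 and 0.04 at 0.1 and 0.37, 0.84 and 0.17 at 1. The female arrays at 1 overlapped those at 0, and the arrays at 0.1 lay below both. With the adipocyte mean as covariate, Igfbp3 differed by -1.27 ± 0.52 in males and -1.43 ± 0.38 in females (1386881_at, adjusted p = 0.813 and 0.263). The plot of member values shows the 4 genes of this and the later paragraphs array by array.

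**Figure D3:**
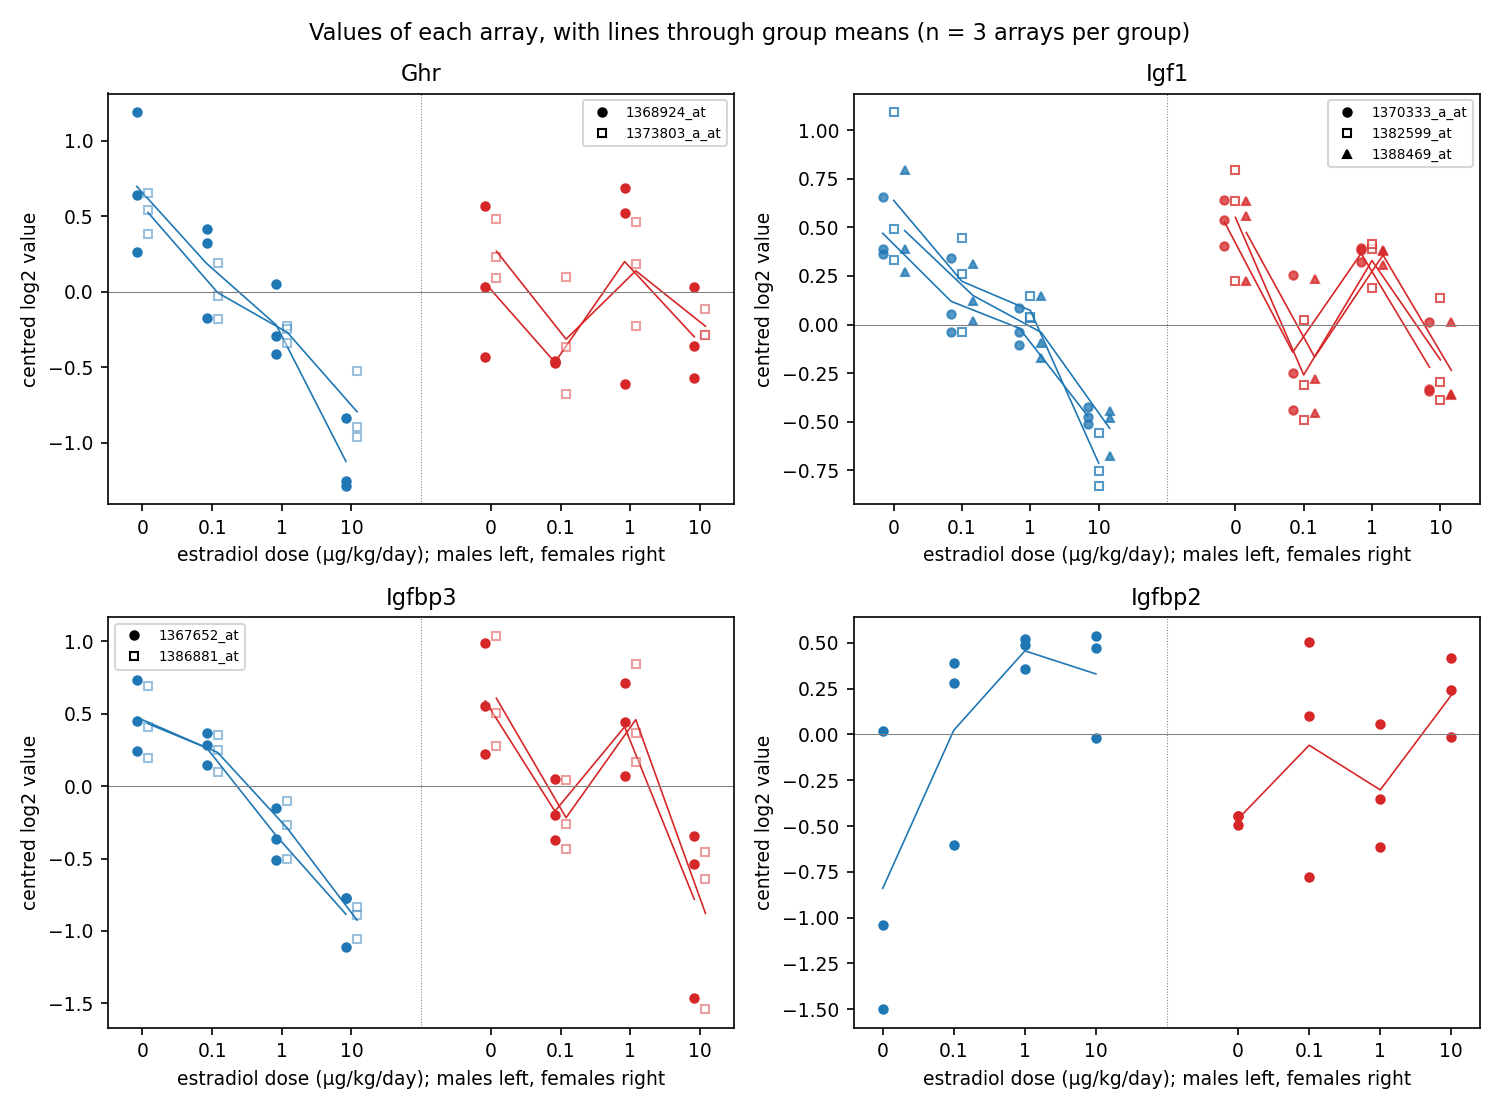
Centred log2 values of Ghr, Igf1, Igfbp3 and Igfbp2 on each array against estradiol dose, males in blue at the left of each panel and females in red at the right; marker shapes are probe sets and lines join group means (n = 3 arrays per group). Male values of Ghr, Igf1 and Igfbp3 are lowest at 10, and female values of Igf1 and Igfbp3 are low at 0.1 and 10 and higher at 0 and 1.

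The start regions of Ghr, Igf1 and Igfbp3 are shown because these genes were lower on every one of their probe sets in males at 10. They are the RefSeq windows of 250 bases before to 50 bases from the annotated start on build GRCr8, each of 300 bases and written 5′ to 3′ on the strand of the gene. Ghr lies at chr2:54432026-54432325 on the minus strand, Igf1 at chr7:24172282-24172581 on the plus strand and Igfbp3 at chr14:86277895-86278194 on the minus strand. Capitals mark an estrogen response half-site.
Ghr: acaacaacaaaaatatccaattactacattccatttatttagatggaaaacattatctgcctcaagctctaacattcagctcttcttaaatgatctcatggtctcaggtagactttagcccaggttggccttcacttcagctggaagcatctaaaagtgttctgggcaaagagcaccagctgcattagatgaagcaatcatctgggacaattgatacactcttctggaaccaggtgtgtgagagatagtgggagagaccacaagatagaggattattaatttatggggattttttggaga
Igf1: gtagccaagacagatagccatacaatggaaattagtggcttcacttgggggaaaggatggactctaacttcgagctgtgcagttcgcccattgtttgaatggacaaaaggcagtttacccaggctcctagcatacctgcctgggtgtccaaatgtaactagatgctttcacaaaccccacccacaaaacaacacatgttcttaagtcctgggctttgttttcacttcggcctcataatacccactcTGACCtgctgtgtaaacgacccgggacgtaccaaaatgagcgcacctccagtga
Igfbp3: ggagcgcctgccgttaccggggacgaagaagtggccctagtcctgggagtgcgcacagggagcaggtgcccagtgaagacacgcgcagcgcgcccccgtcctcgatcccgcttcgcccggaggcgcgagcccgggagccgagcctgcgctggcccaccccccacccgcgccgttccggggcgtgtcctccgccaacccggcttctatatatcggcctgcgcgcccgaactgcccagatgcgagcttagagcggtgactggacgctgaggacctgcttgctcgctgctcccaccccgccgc
Both strands were searched for 4 motifs in the 11 windows of the 10 genes, of which Igf2 has 2. The half-site GGTCA was found in Igf1, from -4 to 0 counted from the start base as 0, and in Igf2 and Igfbp6, that is in 3 of 11 windows against 40.51% of 33469 rat windows. The full estrogen response element (GGTCA, then any 3 bases, then TGACC), which contains the half-site, was in 0 of 11 and in 0.03% of all. The Stat element TTCNNNGAA was in 0 of 11 and in 8.87% of all, and the GC box GGGCGG in 4 of 11 and in 33.06%. Annotated starts need not be those used in mammary gland, and which starts were used was not measured.

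Igf2, the other ligand, passed in neither sex at 10. Its probe sets disagreed: 1367571_a_at had an SD of 0.62 over the 24 arrays and the other 3 had 0.08 to 0.13, with correlations between -0.22 and 0.39. Probe set 1367571_a_at read 0.67, 0.93 and 0.85 in females at 10, against -0.45, -0.08 and -0.25 in females at 0, which do not overlap. That difference was 1.08 ± 0.45 (adjusted p = 0.297). In males it was 0.64, -0.61 and 0.03 at 10 and 0.80, -0.01 and -0.46 at 0, which overlap widely. This probe set correlated with skeletal muscle markers at 0.66 over the arrays, and the muscle mean spanned -1.08 to 0.87 in females at 10 and -3.03 to 0.56 in females at 0. The part of muscle RNA was not tested.

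The receptors Igf1r and Insr each passed on 1 probe set in males at 10. Igf1r 1368123_at read 0.15, 0.28 and 0.13 in males at 10, against -0.46, -0.13 and -0.29 in males at 0, a difference of 0.48 ± 0.14 (adjusted p = 0.0259). Its partner 1392492_at differed by 0.41 ± 0.14 (adjusted p = 0.0521) and tracked it at a correlation of 0.95. Insr 1392043_at read -0.09, -0.27 and -0.56 in males at 10, against 0.34, 0.21 and 0.05 in males at 0, a difference of -0.51 ± 0.13 (adjusted p = 0.0138). The other Insr probe set, 1369051_at, differed by 0.07 ± 0.12 (adjusted p = 0.749), and the 2 correlated at only 0.16. The Igf1r call was lost on leaving out control replicate 1 or 3 or replicate 11 or 12 at 10 (0.40 to 0.56, adjusted p up to 0.132). The Insr call was lost without control replicate 1 or replicate 12 at 10 (-0.62 to -0.38, adjusted p up to 0.0859). With the adipocyte mean as covariate Insr 1392043_at stood at 0.12 ± 0.23 and Igf1r 1368123_at at 0.27 ± 0.30. With the beta-actin covariate they stood at -0.29 ± 0.17 and 0.12 ± 0.16 (adjusted p = 0.438 and 0.762). The Igf1r call was also lost with the hepatocyte mean as covariate (adjusted p = 0.0536). It was lost too without the hepatocyte-high arrays, a fit that left 1 male control. Igf1r 1368123_at correlated over the 24 arrays with the basal epithelial mean at 0.70 and with the luminal mean and the beta-actin difference at 0.64 each.

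Igfbp2, an IGF-binding protein made in many tissues, was higher in males at 1 and 10. It read -1.50, -1.04 and 0.02 in males at 0, -0.60, 0.39 and 0.28 at 0.1, 0.36, 0.49 and 0.52 at 1, and -0.02, 0.54 and 0.47 at 10. The arrays at 1 were above all controls, and replicate 10 at 10 lay just under the highest control. The difference was 1.17 ± 0.34 at 10 (adjusted p = 0.0228) and 1.30 ± 0.34 at 1 (adjusted p = 0.0405). Both calls leaned on single arrays: at 10 the call was lost without control replicate 1 or 2 or replicate 11 or 12 (0.84 to 1.60, adjusted p up to 0.149). At 1 it was lost without control replicate 1 or 2 or any of the 3 arrays at 1 (0.97 to 1.73, adjusted p up to 0.236).

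Igfbp2 moved with epithelial markers. Its correlation over the 24 arrays was 0.96 with the mean of 17 luminal epithelial genes and 0.95 with that of 10 basal genes. The luminal mean lay between -0.10 and 0.28 in males at 10, against -1.08 to -0.01 in males at 0. Of its 19 probe sets, 6 were higher, against 7.81% of all, and 0 lower. The share of epithelium in the Igfbp2 difference was not tested. In females Igfbp2 read 0.41, 0.24 and -0.02 at 10, against -0.45, -0.49 and -0.44 at 0, which do not overlap (0.68 ± 0.34, adjusted p = 0.417).

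Igfbp5, which binds matrix and IGFs and is known from the involuting mammary gland of rodents, fell in males on 3 of 5 probe sets. Probe set 1397830_at read 1.37, 0.29 and 1.02 in males at 0, 0.68, 0.67 and 0.67 at 0.1, -0.09, 0.54 and 0.09 at 1, and -0.34, -0.49 and -0.24 at 10. The arrays at 10 were the lowest 3 of the 12 males. The difference between 10 and 0 was -1.25 ± 0.21 (adjusted p = 0.00056). It was -1.17 ± 0.25 for 1396152_s_at (adjusted p = 0.00344) and -0.78 ± 0.15 for 1387347_at (adjusted p = 0.0015). Probe sets 1370960_at and 1387348_at differed by -0.18 ± 0.11 and -0.14 ± 0.16 (adjusted p = 0.255 and 0.586). The probe sets 1397830_at and 1396152_s_at are annotated to the same expressed sequence tag and correlated at 0.97, so they are not separate evidence.

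**Figure D4:**
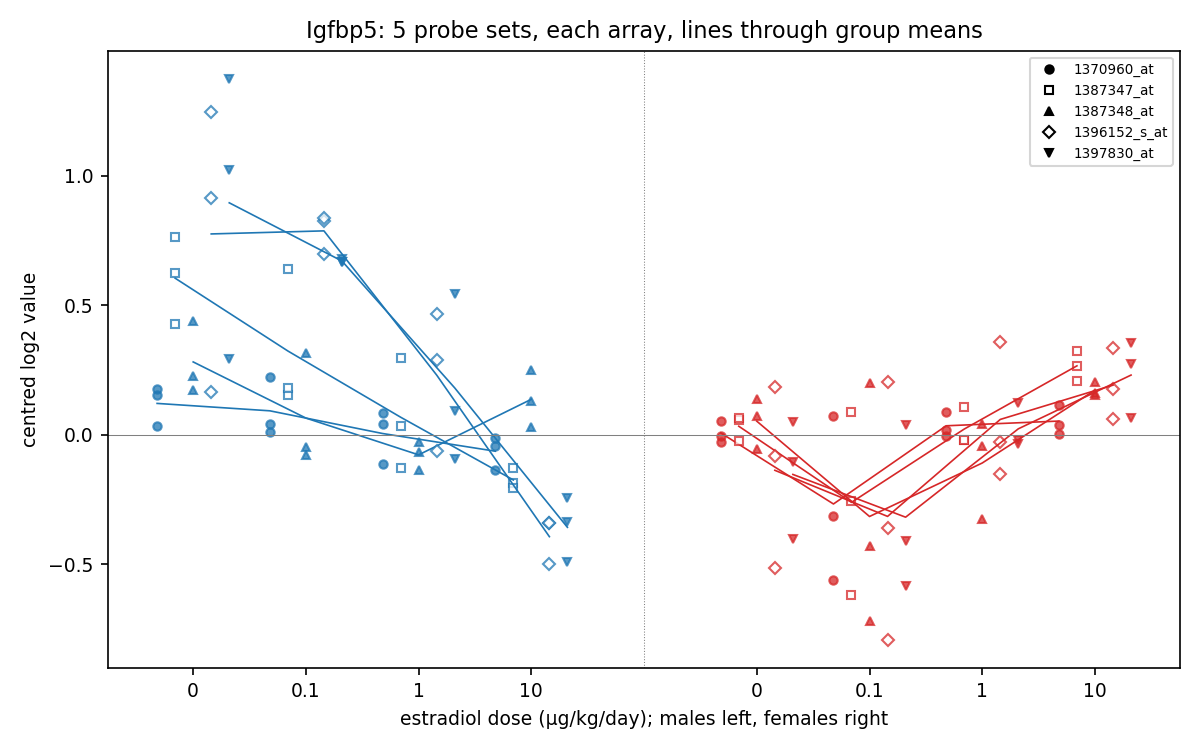
Centred log2 values of the 5 Igfbp5 probe sets (marker shapes) on each array against dose, males in blue at the left and females in red at the right, with lines through group means (n = 3 arrays per group). In males 1397830_at, 1396152_s_at and 1387347_at are lowest at 10, and the female group means at 10 of all 5 lie above 0.

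A possible sign of RNA quality moved beside Igfbp5 and other members. The beta-actin 3′ minus 5′ difference of the control probe sets lay between -0.02 and 0.16 in males at 10, against -0.56 to -0.06 in males at 0. It lay between -0.05 and 0.01 in females at 10, against 0.02 to 0.06 in females at 0. The same difference for GAPDH was -0.061 to 0.008 in males at 10 and -0.138 to -0.034 in males at 0, which overlap. For hexokinase it was -0.121 to 0.142 and -0.362 to -0.119, which also overlap. In males at 0.1, GAPDH was apart from males at 10 (-0.173 to -0.121) and hexokinase overlapped them (-0.078 to -0.036). With the beta-actin difference as covariate the male Igfbp5 difference was -0.83 ± 0.26 for 1397830_at (adjusted p = 0.102), -0.89 ± 0.34 for 1396152_s_at (adjusted p = 0.182) and -0.70 ± 0.21 for 1387347_at (adjusted p = 0.0822). Of the 14 calls in males at 10, 5 passed under this covariate, namely both of Igfbp3, Igf1 1382599_at and 1370333_a_at and Ghr 1373803_a_at. Ghr 1368924_at (-1.28 ± 0.38, adjusted p = 0.086) and Igf1 1388469_at (-0.87 ± 0.23, adjusted p = 0.0505) did not, nor did Igfbp2, Igfbp4, Igf1r and Insr. Igfbp3 1386881_at stood at -1.48 ± 0.34 (adjusted p = 0.0251), Igf1 1382599_at at -1.12 ± 0.25 (adjusted p = 0.026) and Ghr 1373803_a_at at -1.07 ± 0.24 (adjusted p = 0.0224). The share of all probe sets that passed with this covariate is not given, so the count of 5 describes the fit and not the members.

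Igfbp4 and Igfbp6, secreted inhibitors of IGF action, had their highest male group means at 10. Igfbp4 read 0.32, 0.16 and 0.24 in males at 10, against -0.01, 0.05 and -0.28 in males at 0 (0.32 ± 0.10, adjusted p = 0.0357). That call was lost on leaving out control replicate 1 or 3 or any array at 10 (0.22 to 0.39, adjusted p up to 0.172). Against the males at 0.1, which read -0.21, -0.24 and -0.33, the difference was 0.50 ± 0.10 (adjusted p = 0.00713) and passed whichever array was left out. Igfbp6 1372168_s_at read 0.35, 0.16 and 0.46 in males at 10, against 0.03, -0.47 and -0.51 in males at 0.1 (0.64 ± 0.16, adjusted p = 0.0258). It overlapped with the males at 0, at 0.30, -0.23 and 0.08. The Igfbp6 call was lost without replicate 5 or 6 at 0.1 or replicate 10 or 12 at 10 (0.54 to 0.81, adjusted p up to 0.137). Igfbp4 correlated with the beta-actin difference at 0.715 over the 24 arrays.

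Males at 10 also differed from males at 0.1, where 9 probe sets were lower and 2 higher, against 4.45% of all probe sets. With the beta-actin difference, which did not overlap between these groups, as covariate, 0 of the 11 passed (adjusted p = 0.12 to 0.492), and with the adipocyte mean 0 passed (adjusted p = 0.157 to 0.971). The share of all probe sets passing with either covariate is not given, so these counts describe the fits and not the members. Sizes moved both ways: with the adipocyte mean, Ghr 1373803_a_at stood at 0.04 ± 0.15 and Igfbp4 at 0.63 ± 0.16. The 9 lower probe sets were both of Ghr, all 3 of Igf1, both of Igfbp3 and the Igfbp5 pair that shares a tag. Ghr differed by -1.31 ± 0.30 (1368924_at, adjusted p = 0.0165) and -0.79 ± 0.18 (1373803_a_at, adjusted p = 0.0148). Igfbp3 differed by -1.16 ± 0.24 (1386881_at, adjusted p = 0.00837). The 4 lost on leaving out 1 array among these were Ghr, on both probe sets, and Igf1 1370333_a_at and 1388469_at. Replicates 11 and 12 at 10 and replicate 5 at 0.1 ended each of these 4 calls when left out (adjusted p up to 0.0969). Between males at 10 and 1, 0 of 24 passed against 0.387% of all, although 12 had an unadjusted p under 0.05, against 9.41% of all, and 16 had groups that did not overlap, against 19% of all.

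At the lower doses few members passed. In males at 1 against 0, Ghr 1373803_a_at was lower (-0.79 ± 0.18, adjusted p = 0.0213) and Igfbp2 was higher, so that 2 of 24 passed against 3.63% of all. With these 2 included, 13 of the 24 had an unadjusted p under 0.05, against 18.5% of all probe sets. The groups did not overlap for 11 lower and 2 higher probe sets, against 26.2% of all. The Ghr call was lost without control replicate 1 or 2 or any array at 1 (-0.87 to -0.73, adjusted p up to 0.122). In males at 0.1 against 0, limma called 0 members and 0% of all probe sets, and 6 members had an unadjusted p under 0.05, against 11.9% of all. The 2 probe sets that did not overlap there, Ghr 1373803_a_at and Igf1 1370333_a_at, were both lower, against 19.1% of all in either direction. All male comparisons with 0 use the same 3 control arrays.

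In females at 10, Igfbp3 and Igf1 fell and Ghr did not pass. The 4 lower probe sets and 0 higher ones are 16.7% of the members, against 1.86% of all probe sets, 1.05% lower. Igf1 1370333_a_at read -0.34, -0.33 and 0.01 in females at 10, against 0.64, 0.54 and 0.40 in females at 0. These groups are apart, and the difference was -0.75 ± 0.14 (adjusted p = 0.00996). Igf1 1388469_at differed by -0.71 ± 0.17 (adjusted p = 0.0319) and 1382599_at by -0.73 ± 0.19 (adjusted p = 0.0553). The first call was lost without control replicate 1, the hepatocyte-high array, or replicate 10 or 11 at 10 (-0.86 to -0.69, adjusted p up to 0.0651), and the second also without control replicate 2 (adjusted p up to 0.149). Igfbp3 passed on both probe sets whichever array was left out (-1.70 to -1.03). With only the 2 female groups in the fit all 4 calls were lost (adjusted p = 0.066 to 0.133), and Igf2 1367571_a_at passed (1.08 ± 0.12, adjusted p = 0.0331).

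Ghr in females overlapped between 10 and 0 on 1368924_at, at -0.36, -0.57 and 0.03 in females at 10, against 0.57, 0.03 and -0.43 in females at 0. On 1373803_a_at it read -0.29, -0.28 and -0.11 at 10, against 0.48, 0.23 and 0.09 at 0, which are apart. The differences were -0.36 ± 0.30 and -0.50 ± 0.18 (adjusted p = 0.715 and 0.194). The female adipocyte mean lay between -0.46 and -0.29 at 10, against 0.26 to 0.51 at 0. Of its 31 probe sets, 15 were lower (median difference -0.68), against 1.05% of all. Igfbp6 differed by 0.45 ± 0.16 and 0.53 ± 0.17 on its 2 probe sets, with groups apart (adjusted p = 0.179 and 0.131). Groups did not overlap for 8 higher and 6 lower members in all, against 19.9% of all probe sets.

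Female values did not run in dose order. Igf1 1382599_at read 0.64, 0.80 and 0.22 in females at 0, -0.31, 0.02 and -0.49 at 0.1, 0.39, 0.41 and 0.19 at 1, and -0.39, -0.30 and 0.14 at 10. Arrays at 0.1 and 10 overlapped and lay below those at 0 and 1. The adipocyte mean was -0.58 to 0.00 in females at 0.1 and -0.35 to 0.41 in females at 1, ranges that overlap. At 0.1 against 0, limma called 0 members and 0% of all probe sets. The smallest adjusted p among members was 0.0782, for Igf1 1370333_a_at (-0.67 ± 0.14), and 8 members had an unadjusted p under 0.05, against 9.93% of all. At 1 against 0, 0 members passed and 0 had an unadjusted p under 0.05, against 0% and 2.73% of all.

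In females Igfbp3 was lower at 10 than at 1, with differences of -1.34 ± 0.24 (1386881_at, adjusted p = 0.026) and -1.19 ± 0.24 (1367652_at, adjusted p = 0.0445). These 2 of 24 compare with 0.267% of all probe sets. Both calls were lost without replicate 7 or 8 at 1 or replicate 10 at 10 (-1.55 to -0.85, adjusted p up to 0.285). Between females at 10 and 0.1, 0 members passed against 0.944% of all, and 7 had an unadjusted p under 0.05, against 10.9% of all.

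The response to 10 differed between the sexes on 3 of the 5 Igfbp5 probe sets. Probe set 1387347_at read -0.19, -0.13 and -0.21 in males at 10, against 0.76, 0.43 and 0.62 in males at 0. In females it read 0.32, 0.21 and 0.27 at 10, against -0.02, 0.06 and 0.07 at 0. The male groups are apart in one direction and the female groups in the other. The male minus the female difference was -1.01 ± 0.21 (adjusted p = 0.026) for this probe set, -1.63 ± 0.30 (adjusted p = 0.0174) for 1397830_at and -1.50 ± 0.35 (adjusted p = 0.0414) for 1396152_s_at. They are 3 of 24 members, against 1.28% of all probe sets. The female differences alone, 0.23 to 0.38, did not pass (adjusted p = 0.483 to 0.663). Leaving out 1 array ended the call of 1397830_at in 2 of 12 cases, female control replicate 3 and female replicate 10 at 10 (-1.94 to -1.40, adjusted p up to 0.0601). For 1387347_at it did so in 8 of 12 cases and for 1396152_s_at in 9 of 12 (adjusted p up to 0.0753 and 0.129), the arrays in common being female control replicates 2 and 3, female replicates 10 and 12 at 10, male control replicates 1 and 3 and male replicates 10 and 12 at 10.

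For Ghr the male minus female difference at 10 was -1.46 (95% confidence interval -2.36 to -0.57) on 1368924_at and -0.82 (-1.35 to -0.29) on 1373803_a_at, with adjusted p of 0.091 and 0.104. Ghr was therefore not shown to respond differently in the sexes. For Igf1 1382599_at it was -0.62 (-1.18 to -0.05, adjusted p = 0.226). At 1 the same contrast called 0 members against 0.0483% of all, with 7 at an unadjusted p under 0.05, against 9.85% of all. At 0.1 it called 0 members and 0% of all, with 2 at an unadjusted p under 0.05, against 7.3% of all.

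Of 52 other genes of growth hormone and IGF signalling, 44 were measured, on 79 probe sets. In males at 10, 4 of the 44 genes were higher, 11 were lower and 29 did not pass, and 22.8% of the probe sets passed against 17.5% of all. Irs3, a rodent docking protein of the insulin receptor that fat cells express, read -0.56, -0.97 and -0.51 in males at 10, against 0.94, 0.62 and 0.73 in males at 0 (-1.44 ± 0.22, adjusted p = 0.000269). Akt2, the kinase of insulin action in fat and muscle, differed by -1.14 ± 0.14 (1368832_at, adjusted p = 2.51e-05), and 3 of its 4 probe sets passed. Eif4ebp1, a repressor of translation, differed by -0.72 ± 0.12 (adjusted p = 0.000404), and Rps6kb1, a ribosomal protein kinase, by -0.47 ± 0.10 on 1 of 2 probe sets (adjusted p = 0.00295). Akt1 differed by -0.40 ± 0.09 on 1 of 3 probe sets (adjusted p = 0.00575). Pdk1, which encodes a pyruvate dehydrogenase kinase and not the kinase that acts on Akt, differed by -0.98 ± 0.20 (1368079_at, adjusted p = 0.00287). With the adipocyte mean as covariate, Irs3 stood at -0.26 ± 0.36 and Akt2 1368832_at at -0.47 ± 0.23, and 0 of the 79 probe sets passed. The share of all probe sets passing with that covariate is not given, so this count describes the fit and not these genes.

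The 4 higher genes in males at 10 were Stat5a (0.40 ± 0.12, adjusted p = 0.0242), Ptpn1, a phosphatase of the insulin receptor (0.64 ± 0.17, adjusted p = 0.0135), Foxo3, a transcription factor held back by Akt (0.53 ± 0.15, adjusted p = 0.0176), and Pik3ca on 1 of 6 probe sets (0.28 ± 0.07, adjusted p = 0.00783). Ptpn1 passed on 1368645_at and not on 1397916_s_at. Foxo3 passed on 1376593_at and not on 1376210_at or 1376229_at. Leaving out control replicate 1 or replicate 11 at 10 ended the calls of Stat5a, Ptpn1 and Foxo3, and replicate 12 at 10 those of Stat5a and Foxo3. In males at 1, Grb14 was higher and Irs3, Akt2, Pdk1 and Eif4ebp1 lower, genes listed after their values were seen. Igf2r, Igfals and Socs2 passed in neither sex at 10. Cish, which is induced through Stat5 and dampens receptor signals, was lower in males at 10 on 1 of 2 probe sets (-0.74 ± 0.23, adjusted p = 0.036), a call lost in 4 of the 6 fits that left out 1 array.

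In females at 10, Stat5a, Stat5b and Stc2, a secreted inhibitor of the proteases that cleave IGF-binding proteins, were higher, and 0 of the 44 genes were lower, 3.8% of the probe sets against 1.86% of all. Stat5b read 0.28, 0.12 and 0.12 in females at 10, against -0.32, -0.29 and -0.45 in females at 0, groups that are well apart (0.53 ± 0.09, adjusted p = 0.00409). In males it read -0.05, -0.03 and -0.08 at 10, against 0.24, 0.04 and 0.06 at 0 (-0.16 ± 0.09, adjusted p = 0.199). The male minus female difference for Stat5b was -0.69 ± 0.12 (adjusted p = 0.0138) and passed whichever of the 12 arrays was left out. It did not pass with the adipocyte mean or the beta-actin difference as covariate. Stat5a rose in females by 0.59 ± 0.12 (adjusted p = 0.0137), from which leaving out control replicate 1 or 3 or replicate 10 at 10 took the call. Stc2 differed by 0.53 ± 0.13 (adjusted p = 0.0466) and was lost without any 1 of the 6 arrays (adjusted p up to 0.195). Stat5a and Stat5b are near-identical neighbours, and whether their probes cross-hybridise was not tested. Akt2 1368832_at also differed between the sexes (-0.87 ± 0.19, adjusted p = 0.0302), but 9 of 12 fits that left out 1 array lost it (adjusted p up to 0.102).

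Igfbp1, a liver product among the binding proteins, read 1.47 in female control replicate 1, the array with the hepatocyte mean of 2.26. The other 23 arrays lay between -0.32 and 0.36 for Igfbp1, among them male control replicate 3, which had a hepatocyte mean of 2.39.

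The genes whose pattern was most like that of Ghr over the 24 arrays, with the mean of each sex taken off, were Tdrp and Cav2 (Pearson r of 0.97 each), Cavin2 (0.96), S100b and Palmd (0.95 each). Without the 4 hepatocyte-high arrays these were 0.95 to 0.97. The most opposite were Rnf113a1 (-0.91), Eif3d (-0.87) and Pacrgl (-0.86). For Igf1 the most alike were Csad (0.94), Ankef1, Pla2g15 and Nr3c1 (0.93 each) and Col6a6 (0.92), and the most opposite Csnk2b (-0.85), Slc39a2 and Bex1 (-0.84 each). Ghr and Igf1 probe sets followed each other at 0.81 to 0.88. Arrays share dose groups and a common scale, so these are descriptions of 24 arrays.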

How the data were processed

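Per the labels' protocols, RNA of frozen glands was biotin-labelled and put on Affymetrix arrays. The deposited table holds signed log values, taken here as log2 values; the submitters' processing notes name GCOS alone. How probes were summarized, normalized and centred, and the log base, is not given in the sources used here; folds assume base 2. In 45.3% (female arrays) and 41.9% (male arrays) of probe sets, the values nearest 0 on either side were equal and opposite (tolerance 2e-06). This points to centring per probe set within a sex. Its reference is unknown and need not be the middle of the 12 arrays of that sex. Array medians lay between -0.0175 and 0.0134, and no further normalization was applied. No intensities were used, so signal over background cannot be judged; the number of arrays limits the precision.

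Of 31099 probe sets, 57 controls were left out and 31042 tested. The platform annotation gave 1 gene for 20826, several for 436 and none for 9780, and 20758 matched the RefSeq gene table by gene number. The 8 group means were fitted per probe set (limma 3.58.1, R 4.3.3; lmFit and eBayes, 16 residual and 2.95 prior degrees of freedom), two-sided, with Benjamini-Hochberg adjustment over all tested and a threshold of 0.05. The script was tested on simulated data. Groups came from the sample titles. The interaction is the male minus the female difference from 0.

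All member probe sets are reported. From the pathway list, up to 6 genes in each direction with the smallest p in males at 10, females at 10 and their interaction were named, and always Igfbp1, Igfals, Igf2r, Socs2, Cish and Stc2. Likeness named the 5 highest and 3 lowest correlations with Ghr and with Igf1. Marker lists covered hepatocyte, white adipocyte, skeletal muscle, luminal and basal epithelium, fibroblast, endothelium, keratinocyte, macrophage, T cell and B cell genes; a list's level is the mean over its genes. Members and lists were chosen with earlier results of these data known. Alternatives were array weights, a fit of only the groups compared, quantile normalization within each sex, adjustment over probe sets with 1 gene, omission of hepatocyte-high arrays, hepatocyte, adipocyte and beta-actin covariates, a replicate block and leaving out each array; 2 more, a lower hepatocyte limit and omission of the 2 widest arrays, were chosen after seeing the data. Motifs were searched in Python 3.11.15.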

Additional observations from a re-analysis of the deposited data

Results flagged for a closer look

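3 probe sets of Igfbp5 had a response to 10 µg/kg/day that differed between males and females by the interaction term. The male minus female difference was -1.63 for 1397830_at, -1.50 for 1396152_s_at and -1.01 for 1387347_at, negative in all 3. Male group means were lower and female group means higher at 10 than at 0. The female differences alone did not pass, and on 1396152_s_at the female arrays at 10 and 0 overlapped. Probe sets 1397830_at and 1396152_s_at share an expressed sequence tag. The beta-actin 3′ minus 5′ difference also moved with dose in males. With it as covariate the male minus female differences, in the same order, were -1.13 ± 0.34, -1.17 ± 0.44 and -0.92 ± 0.27, none of which passed.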

How the results depend on the processing

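Over the named member results and their settings, 895 kept direction and side of the threshold, 54 passed newly, 179 no longer passed and 2 reversed. The 2 were Insr 1392043_at in males at 10 against 0 (0.12) and Ghr 1373803_a_at in males at 10 against 0.1 (0.0352), both with the adipocyte mean as covariate. In males at 10 against 0, 10 of 14 calls passed whichever array was left out and under all settings except the adipocyte and beta-actin covariates. Omission of hepatocyte-high arrays, among these settings, left 1 male control. With the adipocyte covariate, 0 members passed in males at 10 against 0 (14 without it), at 10 against 0.1 (11) and at 1 against 0 (2), in females at 10 against 0 (4) and against 1 (2), and in the interaction at 10 (3). With the beta-actin covariate 5, 0 and 0 passed in males at 10 against 0, against 0.1 and in the interaction at 10. With array weights 6 passed in females at 0.1, 7 in males at 1, 5 in males at 10 against 1 and 6 in the interaction at 10. With only the groups compared 1 passed in females at 10 against 0, 0 in females at 10 against 1 and 1 in males at 10 against 1. Quantile normalization gave 1 in males at 1 and 1 in the interaction. Omission of arrays with a hepatocyte mean above 1 gave 1 in females at 10 against 0 and 0 against 1; the limit of 0.5, added after seeing the data, gave the same and 0 in males at 1. The hepatocyte covariate gave 1 in females at 10 against 1. Without the 2 widest arrays, also added, 1 passed in each of males at 1, males at 10 against 1 and the interaction. The cause was not tested. The share of all probe sets passing under each setting is not given here. These counts and those of the next paragraph therefore describe the settings and are no results about the members.

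Leaving out 1 array at a time gave 10 to 14 members in males at 10 against 0, 6 to 10 against 0.1 and 0 to 2 in males at 1. It gave 2 to 5 in females at 10 against 0, 0 to 4 against 0.1, 0 to 3 against 1, 0 to 1 at 0.1, and 0 to 4 in the interaction at 10. Among pathway probe sets in males at 10 against 0, 18 were called, with 11 to 20 on leaving out 1 array, 28 with array weights, 11 without hepatocyte-high arrays, 3 with the beta-actin covariate and 0 with the adipocyte covariate. 4 pathway results reversed with the adipocyte covariate in males at 10: Igf2bp2 (0.0426), Stc1 (0.11) and Pdk1 on both probe sets (0.30 and 0.37). Replicate numbers are shared between the sexes only. Deviations of same-numbered arrays correlated at -0.485 to 0.592, over 0.1 in 5 of 12 pairs. Those 5 were replicates 4, 5 and 6 at 0.1 µg/kg/day and replicates 10 and 11 at 10 µg/kg/day. Deviations from a mean of 3 arrays are bound to one another, so these values cannot decide whether the numbers pair the arrays. The main fit took the arrays as unpaired. With the replicate block the Igfbp5 interaction had adjusted p of 0.0307 (1397830_at), 0.0464 (1387347_at) and 0.0575 (1396152_s_at). Array intensities were not available to judge how background limits small differences.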

Other observations

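Among the marker lists, keratinocyte genes moved in males at 10 beside the IGF members. The keratinocyte mean lay between 1.01 and 2.21 in males at 10, against -0.46 to -0.35 in males at 0. There 7 of 11 probe sets were higher (adjusted p under 0.05 in limma), against 7.81% of all. In females it lay between -0.36 and 0.19 at 10, against 0.19 to 1.51 at 0, with 0 of 11 called, against 1.86% of all. Endothelial markers were lower on 11 of 14 probe sets in males at 10, against 9.64% of all. In females at 10 they were lower on 3 of 14, against 1.05% of all. The endothelial mean correlated with Ghr 1373803_a_at at 0.90 over the 24 arrays. The fibroblast mean correlated with the same Ghr probe set at 0.41. T cell and B cell genes were called on 0 of 15 and 0 of 14 probe sets in either sex at 10. Of all probe sets, 17.5% were called in males and 1.86% in females. The median difference over each list's probe sets was nonetheless 1.35 and 1.52 in males. Their part in the member results was not tested.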
